A study of Rattus norvegicus with 8 samples.

Results

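The scaffolds of the postsynaptic density were measured as 22 probe sets, out of 31042 on the array that are not controls, which stand for 9 of 14217 genes with a single symbol. They are all probe sets whose symbol in the platform's gene table is exactly Dlg1, Dlg2, Dlg3, Dlg4, Shank1, Shank2, Shank3, Dlgap1 or Dlgap2. That rule uses symbols and no measured value, but the genes were chosen with earlier results of these data known. The animals were Sprague-Dawley rats, an outbred strain, all male and of about 200 g at the start, and RNA was taken from their frontal cortex. The rats had been assigned at random, 20 to a group, to intraperitoneal olanzapine at 2 mg/kg/day, an antipsychotic that blocks dopamine and serotonin receptors, or to saline, both for 21 days. Arrays were made from 4 rats of each group, and each array is named by its group and animal number (saline 14, 15, 17 and 19; olanzapine 9, 14, 18 and 19). The comparison asks which of these scaffold transcripts differ in the cortex after repeated olanzapine.

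The postsynaptic density is the protein sheet under the membrane of excitatory synapses. Its Dlg proteins (Dlg1 or SAP97, Dlg2 or PSD-93, Dlg3 or SAP102, Dlg4 or PSD-95) are membrane-associated guanylate kinases, which hold glutamate receptors and adhesion proteins through PDZ domains. Dlgap proteins bind the guanylate kinase domain of the Dlg proteins at one end and the PDZ domain of the Shank proteins at the other, and Shank proteins link on to Homer and the actin cytoskeleton. The 3 families therefore form successive layers from the membrane inwards, and they are described in that order.

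Values are probe set intensities on a linear scale, scaled by the authors to a common trimmed mean. Tests were run on log2(intensity + 63.4), where differences of dim probe sets are understated. Median intensities were 159, 167, 163 and 191 in saline 14, 15, 17 and 19, and 171 to 189 in the olanzapine arrays. Of the 12 neuron markers listed, 11 were bright enough to be tested, with summed intensities of 67148 to 82097 in saline and 63621 to 69332 in olanzapine. Markers of striatal neurons, which could come with a wide dissection, summed to 4177 to 4738 in saline and 4349 to 4877 in olanzapine. Endothelial and meningeal markers summed to 4098 to 5121 in saline and 5437 to 10113 in olanzapine, where olanzapine was higher in 9 of 10 members, by a median of 0.45. Oligodendrocyte markers summed to 15492 to 26852 and 17237 to 24541, astrocyte markers to 52759 to 60711 and 47569 to 53632, and microglia markers to 2118 to 2460 and 1879 to 2750. The median difference was 0.085 for oligodendrocyte markers (-0.037 without olanzapine 18) and -0.16 for astrocyte markers (-0.046 without olanzapine 19). It was 0.015 for microglia markers (-0.13 without olanzapine 14). For neuron markers it was -0.12 (-0.043 without olanzapine 9), and for striatal ones -0.046 (0.067 without saline 15). After quantile normalization these medians were 0.076, -0.076, -0.056, 0.020 and -0.044, in that order, and 0.41 for the endothelial and meningeal markers. All markers tested were above the filter, and none of these lists held a gene past the adjusted test. Their part in the scaffold values was not tested. In a piece of cortex, fewer cells of a type and less RNA per cell cannot be told apart.

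As deposited, Dlgap1 had the smallest adjusted p of the scaffold genes. It lay lower in olanzapine in 3 of its 4 probe sets, by 0.12 to 0.25 on the log2 scale. Those 3 were among the brightest 5% of probe sets tested, whose median difference was -0.15, and they lay within 0.099 of 0 after quantile normalization. The remaining scaffolds differed little between the groups compared with the spread between rats. No scaffold probe set passed an adjusted p of 0.05 in limma's linear model over 18625 probe sets, where the share called overall was 0%. The smallest adjusted p of any tested scaffold was 0.487, and 1549 of all probe sets (8.32%) had an unadjusted p under 0.05. Of the 15 scaffold probe sets bright enough to be tested, 9 were lower and 6 higher in olanzapine, with a median difference of -0.025 against 0.027 over all probe sets tested. At an unadjusted p under 0.05 there were 2, both of Dlgap1 and both lower. Lower at that level were 3.73% of all probe sets tested, and 38.4% of the brightest 5%, where both lie. After quantile normalization there were 0 such scaffold probe sets. The other 7 scaffold probe sets fell below the filter on dim values, which lay at a mean intensity of about 114. They include the only Dlgap2 probe set, so that 8 of the 9 genes were tested.

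**Figure D1:**
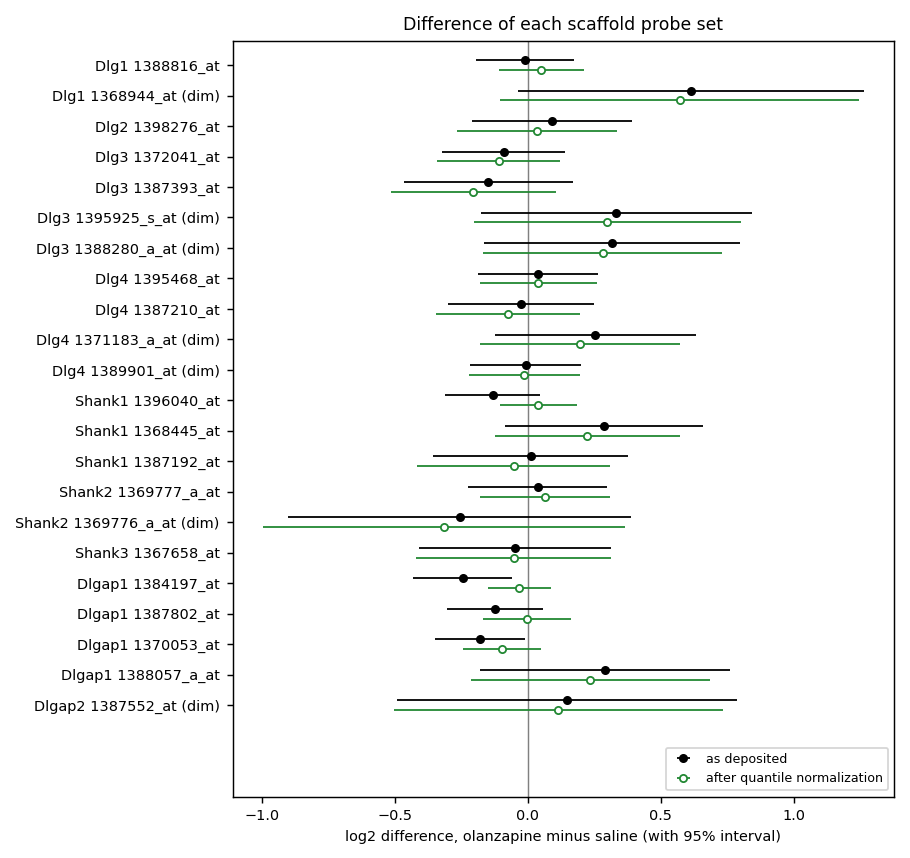
Log2 difference of olanzapine minus saline for all 22 scaffold probe sets, with limma's 95% interval, as deposited (black) and after quantile normalization between arrays (green, open). Dim marks the 7 probe sets below the filter, which were fitted together with all 31042 probe sets. The intervals of 2 Dlgap1 probe sets lie below 0 as deposited, and after quantile normalization every interval includes 0.

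Among the membrane-proximal scaffolds, Dlg4 encodes PSD-95, the most studied organizer of the excitatory synapse. Its probe set 1395468_at read 1516, 1695, 1455 and 1353 in saline 14, 15, 17 and 19, and 1446, 1488, 1750 and 1504 in olanzapine 9, 14, 18 and 19. The groups overlapped over most of their range, with saline 19 lowest and olanzapine 18 highest. The difference was 0.039 (SE 0.11) on the log2 scale, with a 95% interval of the ratio from 0.878 to 1.20 and a limma adjusted p of 0.947. Its sign turned to -0.013 after median centring of the arrays. A second Dlg4 probe set, 1387210_at, read 504 to 545 in saline and 469 to 610 in olanzapine and differed by -0.025 (SE 0.13), with the sign turned in the fit without olanzapine 14. Olanzapine 9 was the high array there, at 610 against 469 to 480 in the other 3. The remaining 2 Dlg4 probe sets were dim, with means over the 8 arrays of 33.5 and 9.11.

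Dlg1 encodes SAP97, which takes part in the delivery of AMPA receptors and is also found in epithelia and other tissues. Probe set 1388816_at read 3857, 4426, 4040 and 3790 in the saline arrays and 4150, 3646, 4186 and 3996 in the olanzapine arrays, in the order above. The group means were 4028 ± 286 and 3995 ± 246 (SD, n = 4 each), a difference far inside the spread. On the log2 scale it was -0.011 (SE 0.087, limma adjusted p 0.985), with a ratio between 0.873 and 1.13 at 95%, and the sign turned to 0.051 after quantile normalization. The dim probe set 1368944_at gave the largest positive difference among the scaffolds, 0.61 (SE 0.30, limma adjusted p 0.735 in the fit without a filter). It read 78.3, 12.3, 106 and 47.0 in saline and 167, 112, 160 and 58.4 in olanzapine, so that the groups overlapped and the difference was 0.40 without saline 15. Its interval of -0.037 to 1.26 on the log2 scale includes 0, and the bright Dlg1 probe set held no difference of that size.

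Dlg2 encodes PSD-93, a close relative of PSD-95, and had 1 probe set, 1398276_at. It read 464, 399, 480 and 422 in saline and 425, 562, 518 and 403 in olanzapine. Olanzapine 14 and olanzapine 18 lay above all saline arrays, while the other 2 lay within the saline range. The difference was 0.091 (SE 0.14, limma adjusted p 0.904), and 0.017 without olanzapine 14. Dlg3 encodes SAP102, the family member that dominates early in development. Probe set 1372041_at read 1109, 1196, 1368 and 1202 in saline and 1005, 1221, 1154 and 1178 in olanzapine, and differed by -0.092 (SE 0.11, limma adjusted p 0.865). The high array was saline 17 and the low one olanzapine 9, and the groups overlapped in between. Without either of these arrays the difference was -0.037 (saline 17) or -0.036 (olanzapine 9). Probe set 1387393_at read 374, 281, 394 and 347 in saline and 297, 331, 276 and 325 in olanzapine, differing by -0.15 (SE 0.15). Saline 15 lay among the olanzapine values there, and the difference was -0.23 without it and -0.096 without saline 17. The other 2 Dlg3 probe sets were dim and went the other way, by 0.33 and 0.32, with intervals that include 0. One of these, 1395925_s_at, carries a suffix that the array's maker uses for probes that can match more than one gene.

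**Figure D2:**
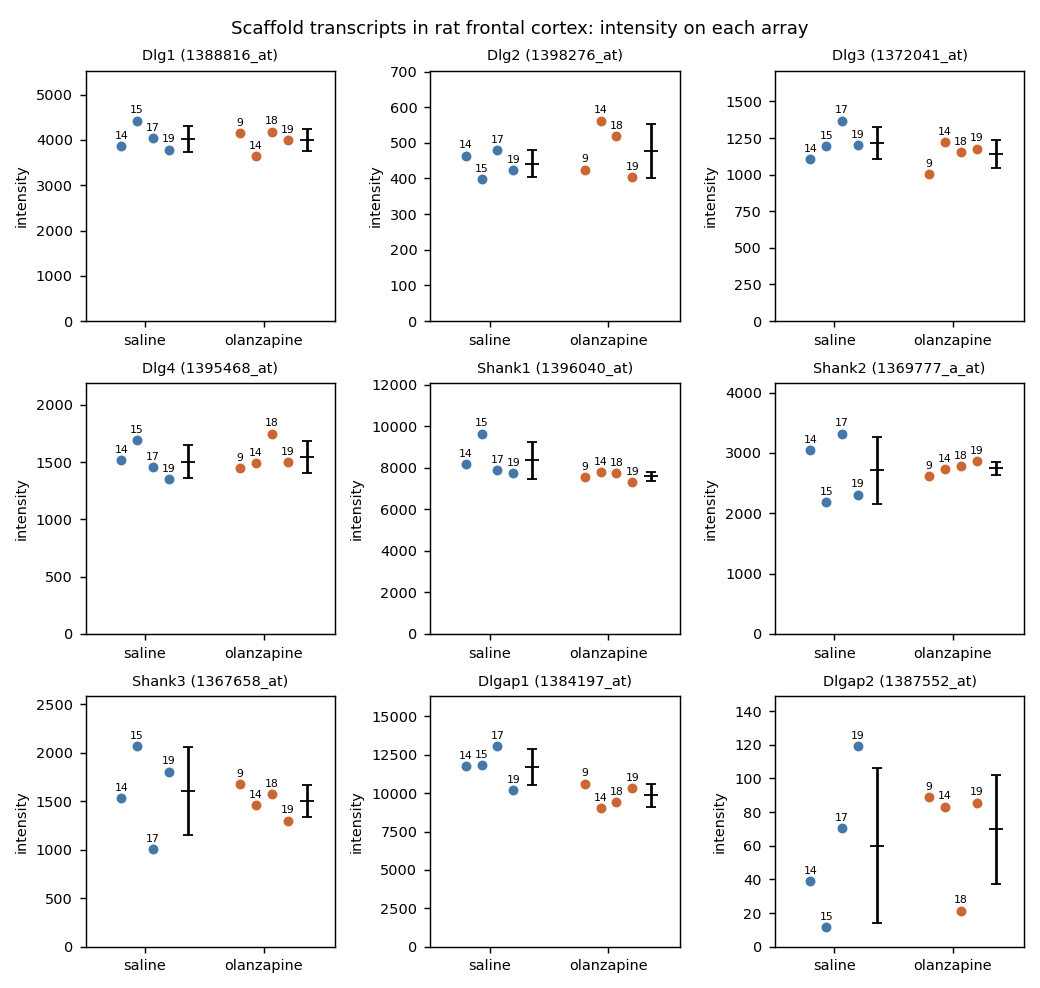
Linear intensity on each array for the brightest probe set of each scaffold gene, with the animal number above each point and the mean with SD (n = 4) to its right. The groups overlap for all 9 genes. Shank2 and Shank3 spread more widely in saline than in olanzapine, and the Dlgap2 probe set is dim, between 11.8 and 119.

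The Dlgap proteins form the middle layer, and Dlgap1 encodes GKAP, the member first found as a partner of PSD-95. Probe set 1370053_at read 5037, 4810, 4591 and 4757 in saline and 3997, 4426, 4312 and 4178 in olanzapine. Every olanzapine array lay below every saline array, which held for 2.07% of all probe sets tested. Among the brightest 5%, where this probe set lies, it held for 18.6%. After quantile normalization the groups overlapped. The difference was -0.18 (SE 0.079, ratio 0.883 with a 95% interval of 0.785 to 0.992, limma adjusted p 0.555). An exact permutation test, two-sided, of the 8 arrays into groups of 4 (70 ways) gave p = 0.0286, the smallest it can give. Without any single array the difference stayed between -0.20 and -0.15.

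Probe set 1384197_at of Dlgap1 read 11742, 11842, 13041 and 10211 in saline and 10618, 9021, 9428 and 10340 in olanzapine. Saline 19 lay among the olanzapine arrays, and the other saline arrays lay above all of them. The difference was -0.25 (SE 0.088, limma adjusted p 0.487) and -0.31 without saline 19, where the adjusted p was 0.0895. Probe set 1387802_at read 6354, 6136, 6585 and 6461 in saline and 5074, 6076, 5970 and 6369 in olanzapine, a difference of -0.12 (SE 0.085). Here olanzapine 19 lay within the saline range and olanzapine 9 was lowest, and the difference was -0.056 without olanzapine 9.

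The fourth Dlgap1 probe set, 1388057_a_at, was barely above the filter and lay higher in olanzapine. It read 106, 62.1, 118 and 118 in saline and 176, 139, 105 and 127 in olanzapine, a difference of 0.29 (SE 0.22, limma adjusted p 0.787) that was 0.16 without saline 15. Its suffix marks probes shared by alternative transcripts of one gene. Against the mean of the other 3 probe sets on the same array it lay 0.47 higher in olanzapine (exact permutation p = 0.0286, 0.0572 after adjustment over the 2 such contrasts made). This contrast was chosen after the values were seen. It sets a probe set of the lowest 20% (median difference 0.071) against 3 of the brightest 5% (median difference -0.15). Dlg1 and Dlg3 also had dim probe sets that went the other way. No contrast was made for them, so the adjustment does not cover them. After quantile normalization the Dlgap1 contrast was 0.28 (exact permutation p = 0.143). With an added value of 16 in place of 63.4 the contrast was 0.58 (exact permutation p = 0.0571).

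**Figure D3:**
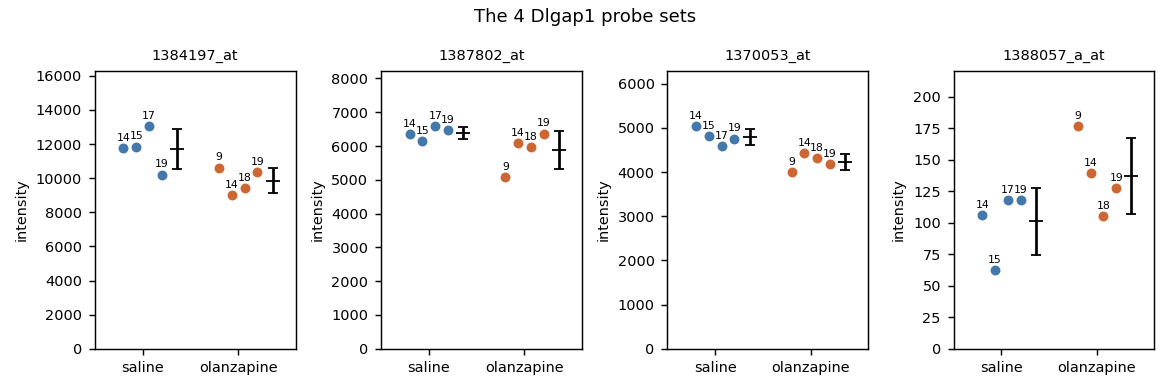
Linear intensity of the 4 Dlgap1 probe sets on each array, with animal numbers and the mean with SD (n = 4) of each group. In 1370053_at the olanzapine arrays (3997 to 4426) lie below the saline arrays (4591 to 5037), whereas in the dim 1388057_a_at the group mean is 101 in saline and 137 in olanzapine.

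RefSeq places 2 starts of Dlgap1 on rat chromosome 9 of the GRCr8 assembly. Both are shown because Dlgap1 had the smallest adjusted p of the scaffold genes as deposited, and the intensities are not resolved by start. Each window holds 250 bases before the start and 50 after it. Capitals mark matches, on either strand, to 5 promoter motifs whose letters are spelled out after the windows, and matches may overlap. The windows are chr9:117613834-117614133 and chr9:117864208-117864507, both on the plus strand. The Dlg4 window, chr10:55239534-55239833 on the plus strand, is shown beside them as the start of their binding partner.
Dlgap1, first start: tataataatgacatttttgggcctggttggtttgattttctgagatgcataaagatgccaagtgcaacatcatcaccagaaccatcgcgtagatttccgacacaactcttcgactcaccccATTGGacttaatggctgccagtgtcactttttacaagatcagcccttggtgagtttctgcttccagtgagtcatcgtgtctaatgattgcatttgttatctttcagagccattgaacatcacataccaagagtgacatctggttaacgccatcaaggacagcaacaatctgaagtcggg
Dlgap1, second start: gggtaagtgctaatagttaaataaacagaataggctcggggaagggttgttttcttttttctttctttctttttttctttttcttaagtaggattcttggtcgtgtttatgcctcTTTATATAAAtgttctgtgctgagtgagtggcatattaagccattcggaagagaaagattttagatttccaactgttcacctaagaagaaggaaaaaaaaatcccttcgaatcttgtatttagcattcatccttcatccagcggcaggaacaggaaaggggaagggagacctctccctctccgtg
Dlg4: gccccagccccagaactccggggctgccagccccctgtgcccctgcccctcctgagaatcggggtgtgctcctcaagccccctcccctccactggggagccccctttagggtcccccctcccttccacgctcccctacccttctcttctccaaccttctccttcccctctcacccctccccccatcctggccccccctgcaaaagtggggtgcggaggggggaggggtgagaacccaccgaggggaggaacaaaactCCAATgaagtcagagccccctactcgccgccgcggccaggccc

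The first Dlgap1 window held 1 match to the CCAAT box, at position -129 from the start, as 37.5% of 33469 rat promoters hold at least 1. The second held 2 overlapping matches to the TATA box (letters TATAAA) in opposite orientation, at -135 and -131, a motif found in 14.2% of promoters. The GC box (letters GGGCGG) had no match in either, and is found in 33.1% of promoters. The same holds for the core of the cyclic AMP response element (letters TGACG), found in 21.2%. The E box (letters CACGTG), found in 6.42%, was not in either window. Their G and C content was 43.3% and 39.0%, against 68.7% in the Dlg4 window and a median of 51.7% over all promoters. The Dlg4 window held 1 CCAAT match, 7 bases after the start. These matches describe letters only. Windows of Dlg1, Dlg2 and Shank3 are in the same table, and 5 of the 9 genes were matched in it.

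Dlgap2, which encodes a second member of the GKAP family, had only the dim probe set 1387552_at. It read 39.1, 11.8, 70.5 and 119 in saline and 88.7, 83.3, 21.5 and 85.6 in olanzapine. The values spread about as widely within each group as between them, and its difference of 0.15 (SE 0.29, limma adjusted p 0.945 without a filter) turned to -0.067 without saline 15.

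Shank proteins form the inner layer. Shank1, the member found mainly in the brain, had 3 tested probe sets, and the 95% interval of each difference includes 0. The brightest, 1396040_at, read 8173, 9648, 7885 and 7726 in saline and 7561, 7775, 7741 and 7297 in olanzapine. Saline 15 stood high, the olanzapine arrays lay close together, and the groups overlapped. The difference was -0.13 (SE 0.084, limma adjusted p 0.738) as deposited, -0.062 without saline 15 and 0.040 after quantile normalization, so that its direction depends on the scaling. Probe set 1368445_at read 195, 194, 265 and 321 in saline and 283, 306, 362 and 279 in olanzapine, a difference of 0.29 (SE 0.17, limma adjusted p 0.724). Olanzapine lay higher except for saline 19, and the difference was 0.40 without saline 19. Set against 1396040_at on the same array it lay 0.42 higher in olanzapine (exact permutation p = 0.114). This contrast was not planned beforehand, and it sets a dim probe set against one of the brightest 5%. After quantile normalization the differences were 0.22 (1368445_at) and 0.040 (1396040_at). Probe set 1387192_at read 214 to 341 in saline and 215 to 302 in olanzapine, with a difference of 0.010 (SE 0.17) that turned to -0.053 after quantile normalization.

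Shank2, also called ProSAP1, is known for variants found in autism. Probe set 1369777_a_at read 3047, 2185, 3321 and 2309 in saline and 2615, 2727, 2777 and 2861 in olanzapine. The saline arrays fell into a higher and a lower pair, and all olanzapine arrays lay between the pairs. The means were 2716 ± 555 and 2745 ± 103 (SD, n = 4 each), and the difference was 0.036 (SE 0.12, limma adjusted p 0.960). It ran from -0.059 without saline 15 to 0.14 without saline 17. The other Shank2 probe set, 1369776_a_at, was dim, at 26.3 to 169 in saline and 34.4 to 73.7 in olanzapine.

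Shank3, whose loss in people leads to Phelan-McDermid syndrome, read 1534, 2066, 1011 and 1806 in saline and 1682, 1463, 1579 and 1301 in olanzapine in probe set 1367658_at. Here too the olanzapine arrays lay within the range of the saline arrays. The means were 1604 ± 451 and 1506 ± 163 (SD, n = 4 each), and the difference was -0.049 (SE 0.17, limma adjusted p 0.961). It was -0.25 without saline 17, the lowest array, and 0.084 without saline 15, the highest. The 95% interval of the ratio ran from 0.753 to 1.24.

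Shank2 and Shank3 ran against each other from rat to rat in both groups. The saline arrays low in Shank2, 15 and 19, were the ones high in Shank3, and saline 17 was highest in Shank2 and lowest in Shank3. Over the 8 arrays Pearson's r was -0.90 (exact permutation p = 0.00283) and Spearman's rho was -0.88 (exact permutation p = 0.00724). This was the most extreme of 28 pairs of scaffold genes, noticed after the values were seen. Adjusted over the 28 pairs the p-values were 0.0792 and 0.203, so that the relation does not pass that adjustment. Without saline 15 and saline 17, the arrays farthest from the median of Shank2, r was -0.71. After group means were subtracted r was -0.90, and after median centring of the arrays it was -0.69 (exact permutation p = 0.0517). The arrays share their scaling. Oligodendrocyte markers, which also varied between the saline arrays, summed to 18359, 26852, 19279 and 15492 in saline 14, 15, 17 and 19, and their part in the relation was not tested. No batch is named in the labels, so no value within a batch can be given.

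**Figure D4:**
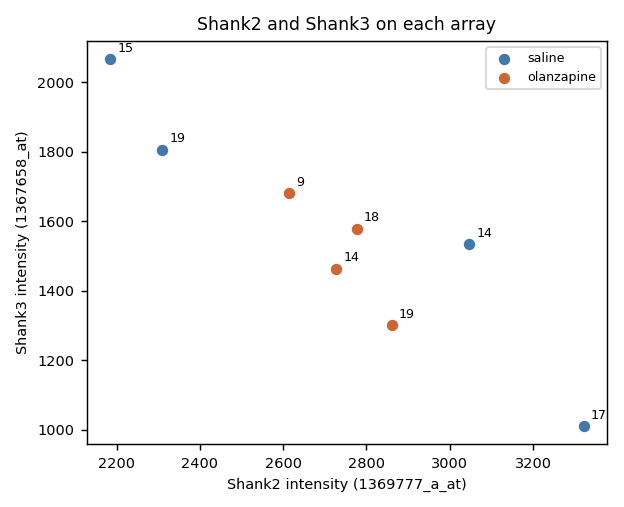
Linear intensity of Shank3 (1367658_at) against Shank2 (1369777_a_at) on the 8 arrays, with animal numbers. Arrays with a high Shank2 value have a low Shank3 value, from saline 15 (2185 and 2066) to saline 17 (3321 and 1011), and the olanzapine arrays lie between them.

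The 4 brightest scaffold probe sets, 3 of Dlgap1 and 1396040_at of Shank1, lay among the brightest 5% of the probe sets tested. That group of 932 had a median difference of -0.15 as deposited, and 88.7% of it lay lower in olanzapine. In it 38.4% were lower at an unadjusted p under 0.05, and in 18.6% every olanzapine array lay below every saline array. The 4 scaffold probe sets, at -0.25, -0.18, -0.13 and -0.12, lay at percentiles 22.7, 42.6, 56.8 and 59.4 of this group. The quartiles of the group were -0.24 and -0.074. Of the Dlgap1 probe sets, 1370053_at and 1387802_at lay between them, and 1384197_at lay just below the lower one. Quantile normalization gives every array one distribution, which largely fixes in advance the median difference of such a group. After it the group's median was 0.00032, and that value is no test of Dlgap1. The Dlgap1 probe sets then differed by -0.034 (1384197_at), -0.099 (1370053_at) and -0.0026 (1387802_at), and the arrays of 1370053_at overlapped. Among dimmer probe sets the median difference ran the other way, at 0.071 in the lowest 20%, where 1388057_a_at of Dlgap1 lay. Whether brightness sets these differences was not tested.

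**Figure D5:**
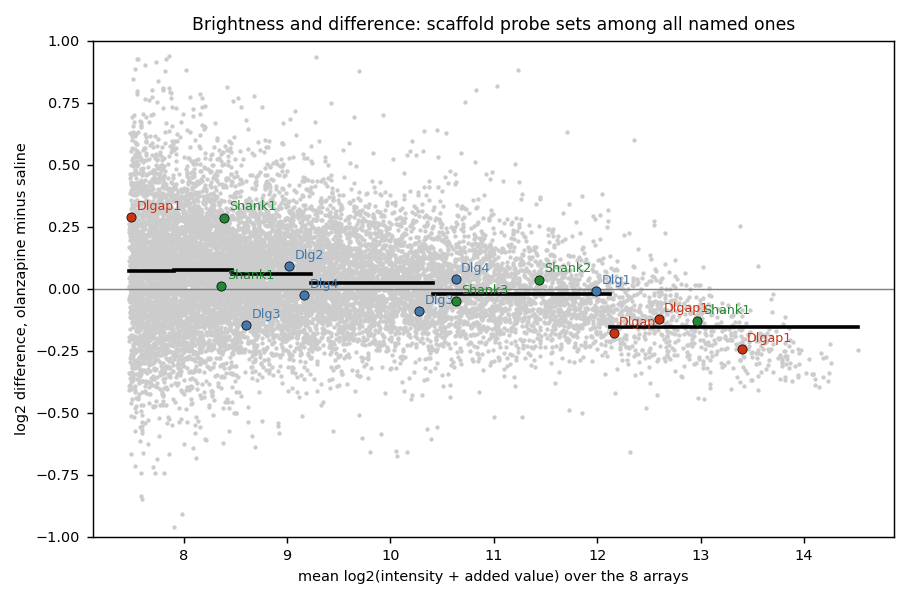
Log2 difference of olanzapine minus saline against mean log2(intensity + 63.4) for named probe sets that were tested (grey, those beyond 1 in either direction not drawn), with the 15 scaffold probe sets in colour by family. Black lines give the median of all probe sets tested in each of 6 brightness ranges, from 0.071 in the dimmest to -0.15 in the brightest. The 4 bright Dlgap1 and Shank1 points lie close to the last line.

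Saline rats spread more than olanzapine rats in 18 of the 22 scaffold probe sets by the SD of log2 values, and in 11 of the 15 tested, against 62.5% of all probe sets on the array and 63.6% of those tested. Saline 15 was the lowest array in 8 of the 22 and the highest in 5, where over all probe sets it was lowest in 19.3% and highest in 17.7%. In the 15 that were tested it was lowest in 4 and highest in 4. Probe sets of 1 gene share their RNA, so these counts are not over independent values.

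Partners of the scaffolds were followed in 5 lists, in which no gene passed the adjusted test. Of all probe sets tested, 56% were higher in olanzapine, with the median of 0.027 given above. Of membrane proteins that bind the PSD-95 family, such as NMDA receptor subunits and adhesion proteins, 5 of 14 were higher and 9 lower, with a median of -0.0099. Adam22 encodes the receptor of the secreted protein Lgi1 and a ligand of PSD-95. It was at 5169 ± 427 in saline and 4108 ± 173 in olanzapine (SD, n = 4 each), with all olanzapine arrays lower. That held for 2.07% of all probe sets tested and for 18.6% of the brightest 5%. The difference of Adam22 was -0.32 (SE 0.085, limma adjusted p 0.330), and -0.24 after quantile normalization, and it too lay among the brightest 5%. The potassium channel gene Kcna4 differed by -0.22 (SE 0.11), and by -0.15 without olanzapine 9. The NMDA receptor genes Grin1, Grin2a, Grin2b, Grin2c and Grin2d, named after their values were seen, differed by 0.053, -0.018, 0.040, 0.23 and 0.27, and Grin2b was at -0.024 after quantile normalization. The smallest limma adjusted p of these genes was 0.738 (Grin2d).

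Partners of Shank and Dlgap proteins were higher in 4 and lower in 8 of 12, with a median of -0.033. The Shank partner Homer1 was at 4460 ± 1712 in saline and 6390 ± 520 in olanzapine, a difference of 0.60 (SE 0.21, limma adjusted p 0.480) that was 0.33 without saline 19. Of its 4 tested probe sets, 3 were higher. Dynll2, a dynein light chain that binds Dlgap proteins, lay lower, at -0.16 (SE 0.088), and at -0.088 without saline 15, but at 0.12 once the arrays were quantile normalized. Signalling enzymes held at the scaffold were higher in 7 and lower in 6 of 13, with a median of 0.017. The kinase genes Pak1 and Camk2b differed by -0.16 (SE 0.10) and -0.10 (SE 0.083), and both moved without saline 15, to -0.081 and -0.050. After quantile normalization Pak1 was at -0.077 and Camk2b turned to 0.061.

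Genes listed as other scaffolds of the postsynaptic density were higher in 13 and lower in 5 of 18, with a median of 0.072, which fell to 0.020 after median centring. The list includes Dlgap5, a Dlgap family member whose place in the postsynaptic density was not examined here. It is 1 of those higher, at 0.21 (SE 0.18). Mpp3, another membrane-associated guanylate kinase, was at 1672 ± 201 in saline and 2043 ± 122 in olanzapine, with all olanzapine arrays higher, as in 2.4% of all probe sets tested. It differed by 0.29 (SE 0.11, limma adjusted p 0.505), although only 1 of its 2 tested probe sets was higher. Cask, a scaffold kinase of the same family that acts on both sides of the synapse, differed by -0.34 (SE 0.15, limma adjusted p 0.546). At inhibitory synapses, which use another scaffold, 3 genes were tested and 2 were higher, with a median of 0.062 that was -0.020 without saline 19 and 0.14 without saline 15. Dag1, the dystroglycan gene, differed by 0.35 (SE 0.18), and by 0.20 without saline 15. Gphn, which encodes gephyrin, the main inhibitory scaffold, differed by -0.12 (SE 0.13), and by -0.026 without saline 19.

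For each tested scaffold gene the named gene with the most similar log2 values over the 8 arrays was sought among 10122 genes. The closest to Dlg4 was Ina, a neuronal intermediate filament gene, at a Pearson r of 0.98. The closest to Dlgap1 was Scd2, a fatty acid desaturase gene, at 0.98, and to Shank1 it was the ribosomal protein gene Rpl3, at 0.98. Shank2 was closest to Sclt1 (0.97), Shank3 to Bag6 (0.97), Dlg2 to Ube2r2 (0.97), Dlg1 to Cngb1 (0.96) and Dlg3 to Ubald1 (0.94). With 8 arrays and so many genes, such values describe these arrays only, and between 63 and 263 genes had an r above 0.8 with each scaffold.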

How the data were processed

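Frontal cortex RNA of 8 rats, 4 given saline and 4 olanzapine, was measured on an Affymetrix rat array of 31099 probe sets (57 controls). The authors deposited linear intensities in a single table. Leaving out 2% at each end, the mean intensity of every array came to 500.15 to 500.17, which shows a scaling to a common mean. In the values so scaled the median difference varied with brightness, from 0.071 in the lowest 20% to -0.15 in the brightest 5%. Software, background correction and detection calls: not given in the sources used here. Gene symbols are those of the platform annotation. The deposited intensities were analysed as log2(intensity + 63.4), where 63.4 is the 25th percentile of the table, after probe sets up to the 40th percentile of mean log2 were set aside. The 18625 left were fitted in limma 3.58.1 (R 4.3.3; lmFit and eBayes with a mean-variance trend, two-sided, Benjamini-Hochberg at 0.05), a procedure tested on simulated data. Scaffold probe sets under the filter were read from a fit of all 31042. Alternatives changed scaling, added value, filter, variance trend, array weights and animal block, and left out each array in turn. Named are all scaffold probe sets, the 2 genes of each partner list with the smallest p and the most similar gene of each scaffold. Outside this rule, the NMDA receptor genes and Dlgap5 were named after their values were seen. Which genes count as members, and which lists were used, was decided with earlier results of these data known; probe sets were then taken by symbol alone. Each array is taken from a separate animal, and 4 arrays per group limit the precision.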

Additional observations from a re-analysis of the deposited data

Results flagged for a closer look

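Values that stood apart within their group of 4 arrays by Dixon's criterion at 95% numbered 3, out of 44 groups of scaffold values examined, where chance gives about 1 in 20. In the Dlg4 probe set 1387210_at, saline 17 was at 545, and the remaining saline arrays lay close together at 504 to 510. In the same probe set olanzapine 9 was at 610 against 469 to 480, and without it the difference of this Dlg4 probe set was -0.11 in place of -0.025. In the dim Dlgap2 probe set 1387552_at, olanzapine 18 was at 21.5 against 83.3 to 88.7, and without it the difference was 0.35.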

How the results depend on the processing

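In no setting run did a scaffold probe set pass an adjusted p of 0.05 in limma, while the number of all probe sets that did so ran from 0 to 107 when 1 array was left out. It was 107 without saline 19 and 1 without olanzapine 9. Animal numbers 14 and 19 occur in both groups but belong to different rats. A replicate block by animal number lets only the arrays numbered 14 and 19 inform the difference. The other numbers occur in 1 group each and add nothing to it. With this block 6 probe sets passed, the median over the scaffold probe sets was -0.0023, and Dlg3 1372041_at turned to 0.052 and Camk2b to 0.010. The deviations of the same-numbered arrays correlated at 0.075 and 0.11, and the labels name no litter or batch behind the numbers. The block also put Kcna4 at -0.015, Gphn at -0.28 and Pak1 at -0.057. The scaffold median, -0.025, was -0.077 after median centring and 0.00050 with no filter. It ran from -0.038 to 0.0046 when 1 array was left out, and was 0.0046 without olanzapine 14. The median of the list of other scaffolds, 0.072, was 0.020 after median centring and 0.023 to 0.10 with 1 array left out, the lowest without olanzapine 14. Medians of 3 partner lists crossed 0 with 1 array left out, namely those of the PSD-95 family's membrane partners (-0.037 to 0.027), the signalling enzymes (-0.013 to 0.054) and the inhibitory scaffolds (-0.020 to 0.14). All 4 Dlgap1 probe sets kept their sign in every setting run, as did 11 of the 22 in all. Scaffold probe sets at an unadjusted p under 0.05, 2 as deposited, numbered 0 after quantile normalization, cyclic loess, without a variance trend and with the block, 1 after median centring, and 1 to 3 with an array left out.

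Signs turned as follows. After quantile normalization Dlg1 1388816_at was at 0.051, Shank1 1396040_at at 0.040 and 1387192_at at -0.053, Camk2b at 0.061 and Dynll2 at 0.12. After cyclic loess these were 0.070, 0.011, -0.055, 0.041 and 0.045, and the dim Dlg4 1389901_at was at 0.0074. After median centring Dlg4 1395468_at was at -0.013, Shank1 1387192_at at -0.042 and Shank2 1369777_a_at at -0.016. With array weights Dlg1 1388816_at was at 0.00072, Shank2 1369777_a_at at -0.030 and Shank3 at 0.035. With 1 array left out, ranges that cross 0 were -0.039 to 0.034 (Dlg1 1388816_at), -0.11 to 0.0071 (Dlg4 1387210_at), -0.033 to 0.0074 (Dlg4 1389901_at, with 0.0053, 0.0043 and 0.0048 without saline 19, olanzapine 9 and olanzapine 19), -0.019 to 0.095 (Dlg4 1395468_at), -0.067 to 0.36 (Dlgap2), -0.071 to 0.11 (Shank1 1387192_at), -0.45 to 0.011 (Shank2 1369776_a_at), -0.059 to 0.14 (Shank2 1369777_a_at) and -0.25 to 0.084 (Shank3). The causes were not tested. Background and detection values were not used here, so the 7 dim scaffold probe sets carry no measure of signal over background.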
